A study of Rattus norvegicus with 9 samples.

Results

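The genes described here carry out DNA replication and mitosis: 47 gene symbols that mark dividing cells, followed across 9 RNA-seq libraries of rat spleen. Members were taken by their symbol in the deposited count table, and 45 of the 47 had a row among its 34408 gene entries. E2f1 and Ccnb2 had no row under these symbols and are not analysed here. The 45 measured genes were kept as 18 S phase genes and 27 mitosis genes, and all 45 were among the 15954 genes that passed the filter on low counts. The study compared 3 groups of rats with the genotype label WT, in 3 libraries each. The first group is labelled control with no agent named, the TAA group received thioacetamide, a liver toxin used to cause cirrhosis in rodents, and the TAA+celecoxib group received the same thioacetamide with celecoxib, an inhibitor of cyclooxygenase 2. Per the labels, thioacetamide was injected into the abdomen every 3 days, at 200 mg/kg for the first 8 weeks and 100 mg/kg for the last 8 weeks. Celecoxib, also per the labels, was given at 20 mg/kg per day for the last 8 weeks. Strain, age and any vehicle given to the controls are not stated in the sources used here, nor whether the libraries of a group come from different animals, so p-values here reflect only the spread among these libraries.

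A dividing cell switches these genes on in 2 waves. At the start of S phase, E2F factors release the genes for nucleotide synthesis, for the MCM helicase that opens the origins and for the replication fork, and later in the cycle the factors B-Myb and FoxM1 drive the genes for the mitotic kinases, the kinetochore and the spindle. Resting lymphocytes, which make up much of the spleen, hold little of either set. In rodents the red pulp of the spleen is also a site of blood formation, where erythroid and granulocyte precursors divide, and activated B cells divide in germinal centres.

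The promoters of the 2 sets carry different elements. RefSeq promoters of the rat build GRCr8, from 250 bases before to 50 bases after the start of the gene, were matched for 36 of the 45 measured members, 14 from S phase and 22 from mitosis. The letters TTTGAA and TTCGAA, the core of the cell cycle homology region (CHR) that holds mitotic genes silent in resting human and mouse cells, stood in 15 of the 22 mitosis promoters (68.2%) and in 3 of the 14 S phase promoters (21.4%), searched on both strands, against 19.7% of all 33469 promoters. E2F sites, searched as TTTCCCGC, TTTCGCGC, TTTGCCGC and TTTGGCGC on both strands, stood in 8 of the 14 S phase promoters (57.1%) and in 1 of the 22 mitosis promoters (4.55%), that of Cdk1, against 2.14% of all promoters. The CCAAT box, bound by NF-Y and searched as CCAAT on both strands, was in 9 of 14 S phase (64.3%) and 16 of 22 mitosis promoters (72.7%), against 37.5% of all. A CHR core and a CCAAT box stood together in 12 mitosis promoters (54.5%), in 2 S phase promoters (14.3%) and in 7.95% of all promoters. The genes listed as other parts of each machine, with no member among them, had a similar split: a CHR core in 71.4% of 49 other mitosis promoters and 16.7% of 30 other replication promoters, and an E2F site in 2.04% and 40% of them. A match here is a run of letters and no measure of binding.

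**Figure D1:**
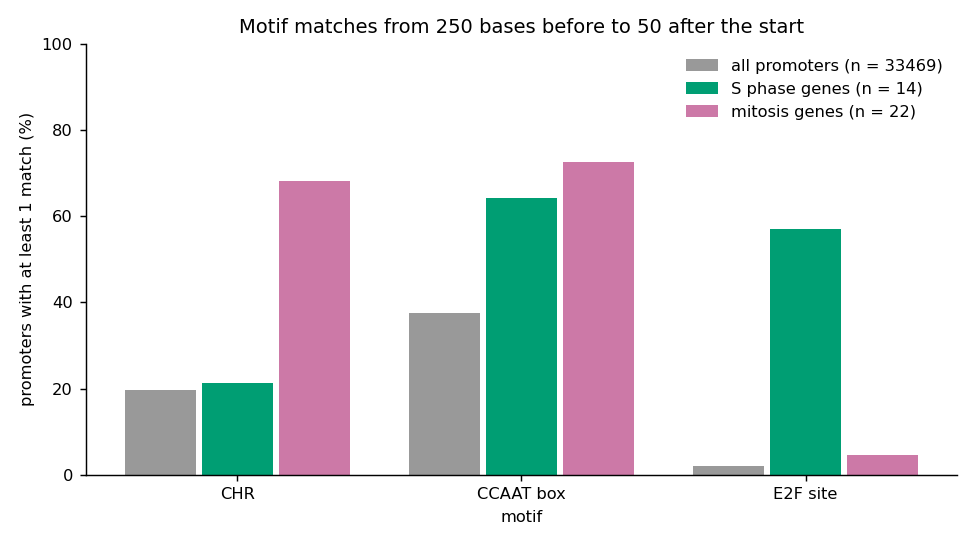
Share of promoters with at least 1 match to each motif (percent) among all 33469 RefSeq promoters, the 14 S phase members and the 22 mitosis members. The CHR core was in 68.2% of mitosis and 21.4% of S phase promoters, and the E2F site in 4.55% and 57.1%.

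The stretches below are shown because they hold a CHR core or an E2F site, the elements that differed most between mitosis and S phase promoters. The CCAAT box was common in both sets and is marked too. Each is written 5′ to 3′ on the strand of its gene, with GRCr8 coordinates, and capitals mark the CHR core, the CCAAT box (ATTGG on the other strand) and the E2F site. In the mitosis genes, Cdk1, the kinase that starts mitosis, held both kinds of element. Mki67 encodes the Ki-67 protein that coats mitotic chromosomes, and its second CHR core shares a base with a CCAAT box. Cdc20 activates the complex that ends metaphase, and Espl1 encodes separase, which cuts the sister chromatids apart.
Cdk1, chr20:19265153-19265287, plus strand: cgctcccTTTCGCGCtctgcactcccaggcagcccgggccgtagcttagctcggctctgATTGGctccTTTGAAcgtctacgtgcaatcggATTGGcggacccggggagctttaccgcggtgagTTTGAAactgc
Mki67, chr1:199952678-199952788, minus strand: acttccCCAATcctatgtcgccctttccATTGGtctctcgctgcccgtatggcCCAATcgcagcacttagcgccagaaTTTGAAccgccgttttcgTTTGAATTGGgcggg
Cdc20, chr5:137255830-137255889, minus strand: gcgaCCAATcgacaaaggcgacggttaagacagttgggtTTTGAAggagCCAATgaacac
Espl1, chr7:135302611-135302645, plus strand: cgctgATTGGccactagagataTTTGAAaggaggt

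In the S phase genes, Tyms makes thymidylate, and Mcm5, Mcm6 and Mcm7 are subunits of the helicase. The Mcm6 site holds a pair of E2F matches that overlap on opposite strands, and in Mcm7 the E2F match shown overlaps a CCAAT box. Farther from the start than the stretches shown, Mcm7 also held a CHR core, and Mcm5 and Mcm7 held further E2F matches.
Tyms, chr9:120776104-120776143, minus strand: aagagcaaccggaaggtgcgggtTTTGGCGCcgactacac
Mcm5, chr19:13488673-13488812, plus strand: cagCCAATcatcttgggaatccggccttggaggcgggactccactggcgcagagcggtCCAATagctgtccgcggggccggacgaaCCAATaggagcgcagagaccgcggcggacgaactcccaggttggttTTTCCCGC
Mcm6, chr13:42404383-42404497, minus strand: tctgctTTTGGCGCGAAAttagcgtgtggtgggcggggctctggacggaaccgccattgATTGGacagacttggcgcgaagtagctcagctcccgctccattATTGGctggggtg
Mcm7, chr12:22163214-22163278, minus strand: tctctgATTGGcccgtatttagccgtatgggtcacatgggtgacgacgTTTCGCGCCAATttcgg

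The libraries held 14211789 to 19014761 counts, and a single count was worth 0.0526 to 0.0704 CPM before TMM factors (CPM is the count at equal library size, here with TMM factors), and every member had at least 78 counts in every library. Differences between replicates exceeded counting error, with a common biological coefficient of variation of 0.311. The labels name the cell type splenocytes, and summed markers were at 3154, 2748 and 2817 CPM in control, 2564, 2859 and 2164 in TAA and 4162, 2136 and 3294 in TAA+celecoxib for 9 B cell genes and at 1019, 688 and 637 CPM in control, 495, 534 and 399 in TAA and 915, 469 and 756 in TAA+celecoxib for 10 T cell genes. Both were present in every library. Transcripts of hepatocytes were also present in 2 libraries: 9 hepatocyte markers summed to 122 CPM in control 1 and 938 CPM in TAA 1, against at most 2.17 CPM in the other 7. Control 1 and TAA+celecoxib 1 were lowest in macrophage and endothelium markers. The 11 macrophage genes summed to 3077, 6125 and 6135 CPM in control. They summed to 6940, 6731 and 9357 in TAA and 2496, 5616 and 5372 in TAA+celecoxib. For endothelium, 8 genes summed to 312, 675 and 938 CPM in control. Sums were 665, 685 and 1082 in TAA and 320, 680 and 721 in TAA+celecoxib. The bearing of this on the members was not tested. In bulk RNA, more dividing cells and more RNA of these genes per dividing cell cannot be told apart.

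Within each group, nearly all the genes ranked the libraries in the same way. Control 1 was the highest control library for all 45 members, TAA 1 was the highest TAA library for 44, with Melk as the exception, and TAA+celecoxib 2 was the highest of its group for 40. Over all genes tested, these libraries were the highest of their group for 44.9%, 32.9% and 32.8% of genes. TAA+celecoxib 3 was the lowest of its group for 44 members, all but Pole, and TAA 3 the lowest of its group for 38. Mcm3, Cdt1, Gins2, Birc5 and Melk were highest in TAA+celecoxib 1 rather than 2. Members share the same RNA samples, so a count of members in 1 library is not a count of independent observations.

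**Figure D2:**
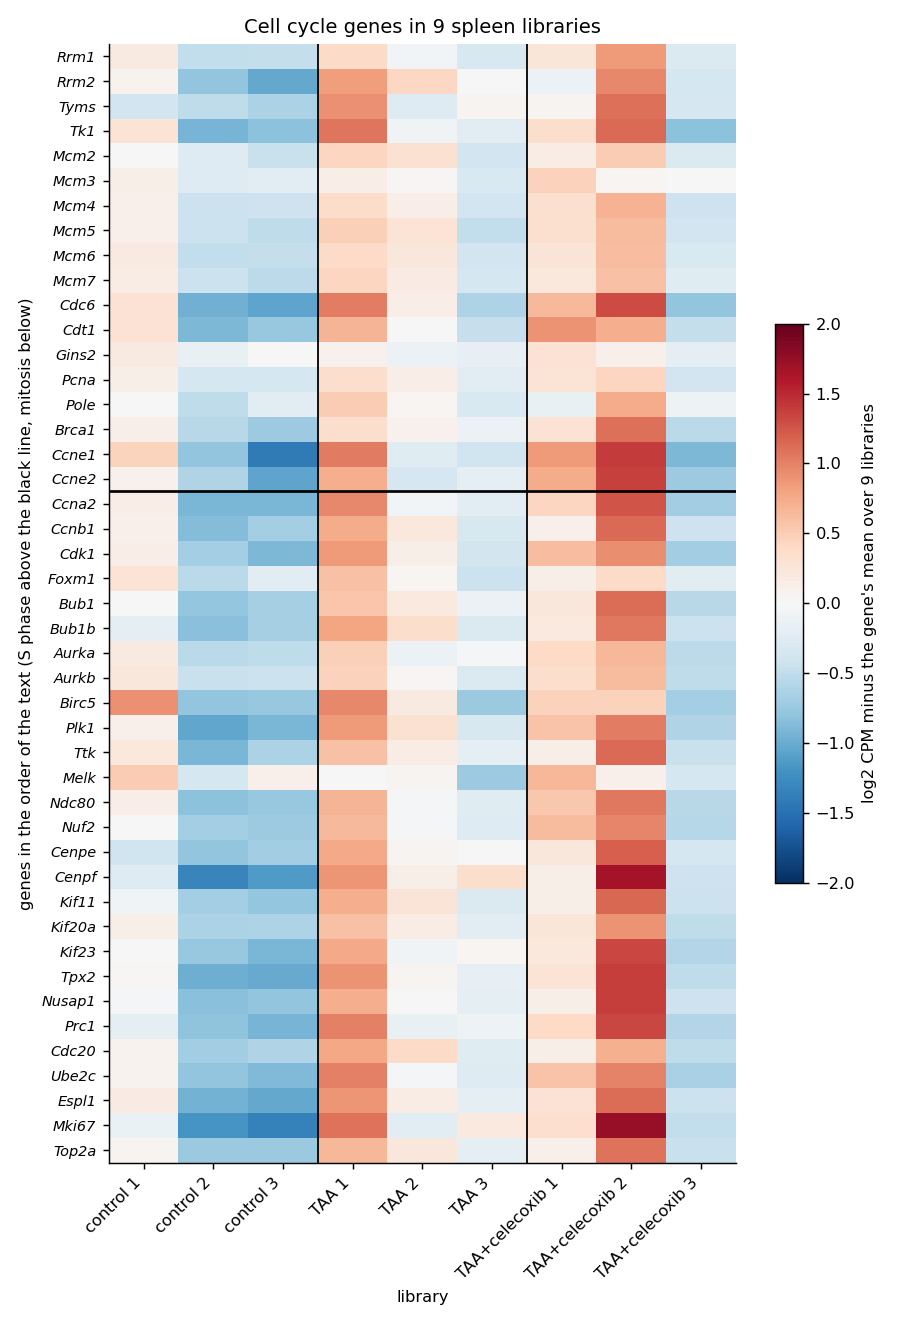
Heat map of log2 CPM of the 45 measured members (rows, by role) in the 9 libraries (columns, by group), each gene centred on its mean over libraries. TAA+celecoxib 2 was the highest of the 9 libraries for 37 genes, and control 2 and control 3 were the lowest for 21 and 19.

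The libraries differed more in these genes than in most. The median range over the 9 libraries was 1.84 on the log2 CPM scale for the members, 1.29 for S phase and 1.89 for mitosis genes, against 0.935 for all genes tested. Mki67 had the widest range among members, 8.54-fold between TAA+celecoxib 2 and control 3, followed by Cenpf at 7.86-fold and Ccne1 at 6.99-fold. The narrowest were Gins2, part of the helicase activator, at 1.41-fold, Mcm3 at 1.69-fold and Pcna at 1.74-fold. Within groups the members' median range was 0.80 in control, 0.91 in TAA and 1.53 in TAA+celecoxib, against 0.50, 0.42 and 0.57 for all genes.

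Set by FPKM, which scales counts to gene length so that genes can be compared, Pcna, the sliding clamp of the replication fork, had the highest mean level over 9 libraries at 116 FPKM. Mcm3, a helicase subunit, stood at 59.9 FPKM. The nucleotide genes Tk1, Rrm1 and Rrm2 were close to each other at 32.6, 32.5 and 32.1 FPKM. In mitosis, Mki67, Birc5, Top2a, Cdk1 and Ccnb1 had 28.6, 26.3, 23.6, 21.1 and 20.4 FPKM. Melk and Brca1 were among the low members, at 2.45 and 2.77 FPKM.

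The genes of nucleotide supply were high in the same libraries. Tk1, which salvages thymidine, was at 77.7, 33.7 and 36.1 CPM in control, 134, 61 and 55.5 in TAA and 82, 141 and 36.4 in TAA+celecoxib. Rrm2, the regulated subunit of ribonucleotide reductase, was at 36.2, 20.1 and 17.1 CPM in control, 61.8, 45.8 and 34.8 in TAA and 31.8, 67 and 27 in TAA+celecoxib. Control 1 lay above TAA 3 for Rrm2, so the groups overlapped. Rrm1, the other subunit, was at 136, 85.8 and 86.9 CPM in control, 157, 116 and 96.3 in TAA and 144, 218 and 98.4 in TAA+celecoxib, with the highest value in TAA+celecoxib 2. Tyms was at 17.6, 16.1 and 14.7 CPM in control, 42.9, 19 and 23.8 in TAA and 23.7, 49 and 18.1 in TAA+celecoxib. For Tyms the highest control library lay below the lowest library of either other group.

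Among the genes that license and open the origins, Mcm2 was at 95.1, 80.2 and 69.9 CPM in control, 128, 118 and 73.4 in TAA and 106, 135 and 78 in TAA+celecoxib. Mcm3 was at 191, 146 and 152 CPM in control, 193, 178 and 143 in TAA and 241, 180.5 and 174 in TAA+celecoxib, a narrow spread in which TAA 3 was the lowest of all. Cdt1, which loads the helicase onto DNA, was at 28.6, 12.6 and 13.8 CPM in control, 37.2, 23.5 and 16.9 in TAA and 43.5, 38.5 and 16.9 in TAA+celecoxib. Here control 1 stood above 3 of the 6 libraries of treated rats. Gins2 was at 52.3, 41.8 and 46 CPM in control, 49.2, 42.5 and 41.3 in TAA and 56.9, 49.7 and 40.4 in TAA+celecoxib, and its groups overlapped. Mcm4, Mcm5, Mcm6, Mcm7 and Cdc6, the loader's partner, had mean levels of 21.7, 20.7, 30.4, 42.8 and 5.26 FPKM, with ranges over libraries of 2.17-, 2.22-, 2.16-, 2.16- and 5.15-fold.

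At the replication fork, Pcna was at 145, 104 and 104 CPM in control, 170.4, 145 and 115 in TAA and 160.3, 178 and 102 in TAA+celecoxib. Brca1, which acts in repair by recombination, was at 18.8, 11.7 and 10.5 CPM in control, 22, 18.3 and 16 in TAA and 21.1, 37.2 and 12 in TAA+celecoxib. In both genes TAA+celecoxib held the highest and a low library at once. Pole, the catalytic subunit of DNA polymerase epsilon, ranged 2.38-fold. The E cyclins, which switch on Cdk2 at entry into S phase, had the widest ranges among the 18 S phase genes. Ccne1 was at 24.8, 10.6 and 6.83 CPM in control, 37.4, 15.5 and 13.8 in TAA and 33, 47.8 and 9.81 in TAA+celecoxib. Ccne2 was at 17.4, 10.7 and 7.91 CPM in control, 27, 12.9 and 14.2 in TAA and 27.2, 42.3 and 9.87 in TAA+celecoxib. In both, control 1 stood above TAA 2, TAA 3 and TAA+celecoxib 3. Ccne2 overlaps Ints8 on the opposite strand, and since strand is not stated their reads cannot be told apart.

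The mitotic cyclins and their kinase were high and low in the same libraries. Cdk1 was at 29.9, 17 and 14.5 CPM in control, 49, 29.5 and 21 in TAA and 41.5, 51.5 and 16.7 in TAA+celecoxib. Cyclin A2, encoded by Ccna2, was at 38.2, 18.5 and 18.6 CPM in control, 67.4, 33.6 and 30.0 in TAA and 46.8, 83.1 and 21.5 in TAA+celecoxib. Cyclin B1, encoded by Ccnb1, was at 32.3, 16.4 and 18.7 CPM in control, 50.2, 34.9 and 24.1 in TAA and 32.3, 65.6 and 22.5 in TAA+celecoxib. In each of the 3, control 1 stood above TAA 3 and TAA+celecoxib 3, and control 2 and 3 stood below all 6 libraries of treated rats, except that control 2 lay just above TAA+celecoxib 3 for Cdk1. Ccna2 overlaps Exosc9 on the opposite strand. Foxm1, a transcription factor for mitotic genes, ranged 2.17-fold.

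Of the kinases and checkpoint genes, Bub1b, which keeps the spindle checkpoint on until chromosomes attach, was at 19, 12.1 and 13.7 CPM in control, 37.2, 27.6 and 17.8 in TAA and 24.8, 45 and 16 in TAA+celecoxib. Birc5, of the chromosomal passenger complex, was at 39.1, 12 and 12.3 CPM in control, 40.1, 23.4 and 12.3 in TAA and 28.7, 28.5 and 13 in TAA+celecoxib. Control 1 was nearly as high as TAA 1 for Birc5. Melk, a kinase of dividing cells, was at 9.62, 5.28 and 7.28 CPM in control, 6.75, 7.05 and 4.07 in TAA and 10.7, 7.22 and 5.3 in TAA+celecoxib and did not follow the common ranking, with control 1 above all 3 TAA libraries. Bub1, Ttk, Aurka, Aurkb and Plk1, the other kinases of the list, ranged 3.74-, 4.15-, 2.31-, 2.22- and 4.2-fold.

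Of the 4 kinetochore genes, 2 were higher in TAA than in control without overlap. Over all 45 members 4 were (8.89%), against 6.94% of all genes, so this is no result particular to the kinetochore. Cenpe, a motor that carries chromosomes to the spindle equator, was at 24, 18.3 and 19.6 CPM in control, 53.2, 32.7 and 31.4 in TAA and 37, 72.2 and 24.9 in TAA+celecoxib. All 6 libraries of treated rats lay above all 3 controls. Cenpf, a large kinetochore protein, was at 28.9, 14 and 15.9 CPM in control, 63.7, 37.8 and 44.2 in TAA and 37.7, 109.6 and 25.9 in TAA+celecoxib, where TAA did not overlap control but TAA+celecoxib 3 lay below control 1. Nuf2, of the complex that grips microtubules, was at 13.8, 8.67 and 8.37 CPM in control, 21.7, 13.7 and 11.6 in TAA and 21.5, 27.4 and 9.36 in TAA+celecoxib. Its partner Ndc80 ranged 3.66-fold.

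In the spindle, Tpx2, which activates Aurora A, was at 45.1, 22.6 and 22.1 CPM in control, 82.7, 46.2 and 39.6 in TAA and 53.4, 116 and 31 in TAA+celecoxib. Prc1, which bundles microtubules in the midzone, was at 28.6, 18.9 and 17.3 CPM in control, 66.4, 29.8 and 30.8 in TAA and 43.2, 83.4 and 22 in TAA+celecoxib. Prc1 was higher in every TAA library than in every control. Nusap1, a protein that binds spindle microtubules, was at 22.4, 12.8 and 13.2 CPM in control, 38, 22.9 and 20.2 in TAA and 24.9, 59.8 and 17.2 in TAA+celecoxib. Control 1 lay within the other groups for Tpx2 and Nusap1. The motors Kif11, Kif20a and Kif23 ranged 3.8-, 2.89- and 4.76-fold, and Kif20a overlaps Cdc23 on the opposite strand.

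For exit from mitosis, Cdc20 was at 30.9, 18.2 and 19.5 CPM in control, 50.5, 38.4 and 24.9 in TAA and 32, 48.1 and 20.7 in TAA+celecoxib. Espl1 was at 25.9, 12 and 11.4 CPM in control, 42.8, 25.7 and 20.2 in TAA and 28.5, 50.4 and 17.3 in TAA+celecoxib. Both had TAA 1 and TAA+celecoxib 2 at the top and control 2 and 3 at the bottom. Ube2c, the conjugating enzyme that works with Cdc20, ranged 3.7-fold. Mki67 was at 209, 102 and 89.5 CPM in control, 485, 199 and 263 in TAA and 289, 764 and 163 in TAA+celecoxib. Top2a, which untangles DNA before segregation, was at 126, 73.2 and 72.9 CPM in control, 194, 143 and 106 in TAA and 131, 261 and 90.3 in TAA+celecoxib. Control 1 stood above the lowest library of either treated group in both genes.

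**Figure D3:**
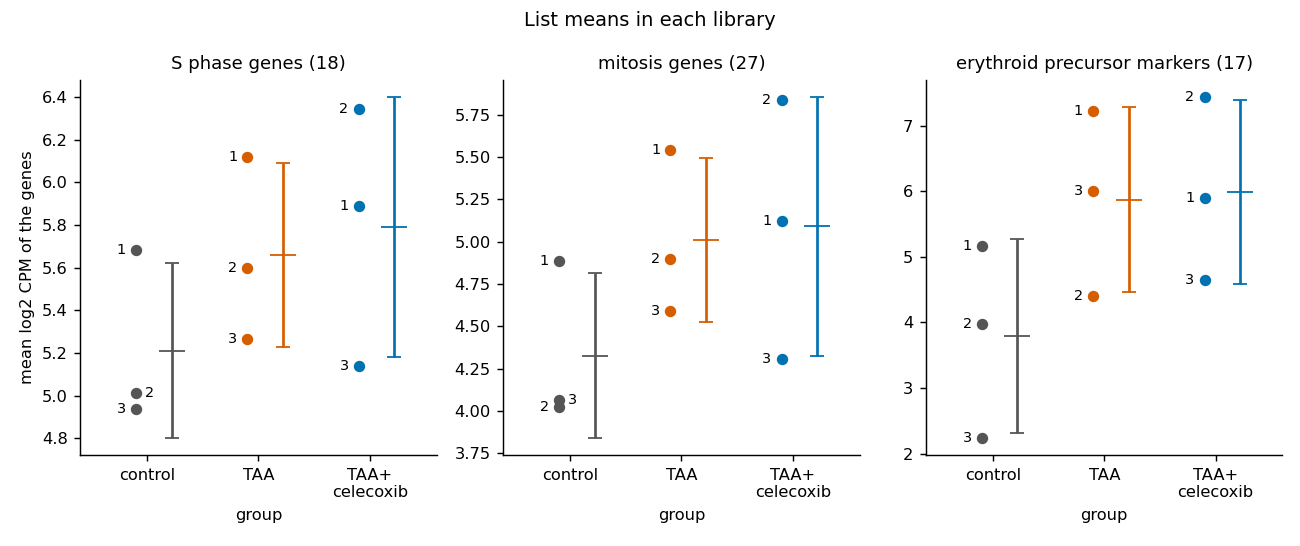
Mean log2 CPM of the 18 S phase members, the 27 mitosis members and the 17 erythroid precursor markers in each library (points, numbered by replicate), beside the group mean with its SD over 3 libraries (bars). For S phase and mitosis, control 1 lies inside the range of both other groups, and TAA+celecoxib spans from 5.14 to 6.34 for S phase and from 4.31 to 5.84 for mitosis.

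TAA was compared with control to ask what the toxin does to the spleen. Fitted values were higher in TAA for 43 of the 45 members, with Gins2 and Melk lower, against 50.2% of all genes higher and 49.8% lower, and the median log2 fold change was 0.66 (0.39 in S phase and 0.73 in mitosis) against 0.0017 for all genes. The test called 0 members, and it called 0% of the 15954 genes (edgeR quasi-likelihood, Benjamini-Hochberg adjusted p under 0.05). DESeq2 called 55 genes, or 0.345%, and 0 members, and 957 genes, or 6%, had an unadjusted edgeR p under 0.05 in either direction. The largest fitted differences among members were Cenpf, 19.6 ± 8.14 CPM (SD, n = 3) against 48.6 ± 13.5 CPM (SD, n = 3), with a log2 fold change of 1.31 ± 0.52 (SE), and Mki67, 134 ± 66 CPM (SD, n = 3) against 316 ± 150.3 CPM (SD, n = 3), with 1.24 ± 0.59. Their adjusted p was 0.788, the smallest of any member. Rrm2 was at 0.96 ± 0.41, Prc1 at 0.97 ± 0.49, Cenpe at 0.92 ± 0.37 and Bub1b at 0.88 ± 0.40. Mcm3, Pcna and Birc5 were nearer to 0, at 0.07 ± 0.18, 0.28 ± 0.24 and 0.26 ± 0.57.

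Groups did not overlap for 4 members, Tyms, Cenpe, Cenpf and Prc1, all higher in TAA, which is 8.89% of the members against 6.94% of all genes in that direction, and 0 members were lower without overlap, against 7.89%. Unadjusted p was under 0.05 for 3 members, Cenpf, Cenpe and Rrm2, or 6.67% against 2.85% of all genes in that direction. That count moved with single libraries: it was 0 without TAA 1, control 2 or control 3, 5 without TAA 3, 6 without TAA+celecoxib 3, 10 without control 1 and 11 without TAA+celecoxib 2. Of all genes, 678 of 16273, 716 of 16296 and 973 of 16316 were under 0.05 without TAA 1, control 2 and control 3. They were 775 of 16317 without TAA 3 and 906 of 16330 without TAA+celecoxib 3. They were 714 of 16237 without control 1 and 1273 of 16301 without TAA+celecoxib 2, all in either direction. The members' median was 0.31 without TAA 1 and 0.98 without control 1. These are the libraries with hepatocyte transcripts, and without both the median was 0.67. They are also the highest libraries of their groups for nearly all members, and the bearing of these transcripts was not tested. TAA 3 lay above control 2 and above control 3 in 40 members each, and above control 1 in 6.

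**Figure D4:**
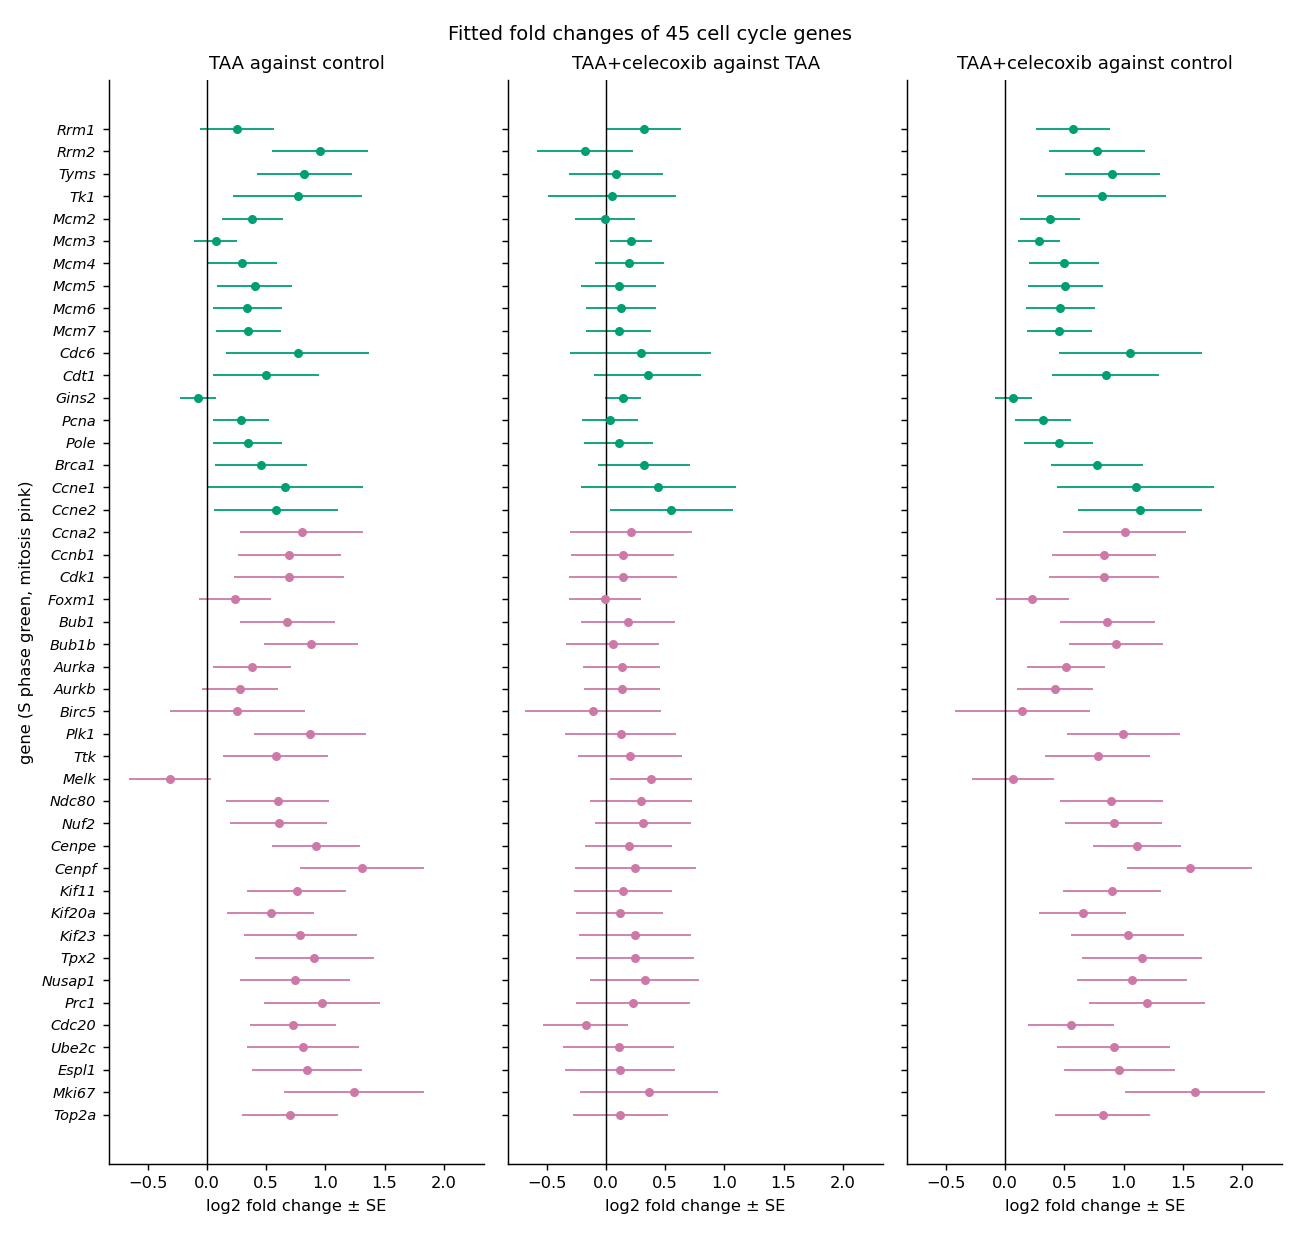
Fitted log2 fold change with its SE (edgeR) for each of the 45 members (rows, S phase above mitosis) in the 3 comparisons (panels). The medians are 0.66 for TAA against control, 0.14 for TAA+celecoxib against TAA and 0.84 for TAA+celecoxib against control, and no member passed an adjusted p of 0.05.

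TAA+celecoxib was compared with TAA to ask what the drug adds. The members had 40 of 45 fitted values higher in TAA+celecoxib, against 51.2% of all genes, with a median log2 fold change of 0.14 (0.13 in S phase and 0.14 in mitosis). The test called 0 members and 0% of all genes, DESeq2 called 25 genes, or 0.157%, and 0 members, and 0 members had an unadjusted p under 0.05, against 812 of all genes, or 5.09% in either direction and 2.63% with TAA+celecoxib higher. The direction depended on single libraries: without TAA+celecoxib 2 only 5 of 45 members were higher, with a median of -0.25, without TAA 3 there were 21 with a median of -0.02, and without TAA 1 or TAA+celecoxib 3 all 45 were, with medians of 0.44 and 0.45. The 2 E cyclins had the highest fitted differences, 0.55 ± 0.52 (SE) for Ccne2 and 0.44 ± 0.65 for Ccne1, with adjusted p of 0.903 and 0.933. Mki67 had 0.36 ± 0.58, with 316 ± 150.3 CPM (SD, n = 3) against 406 ± 317 CPM (SD, n = 3). The 5 members with negative fitted values were Rrm2 at -0.18, Cdc20 at -0.17, Birc5 at -0.11, and Foxm1 and Mcm2, both at -0.01. Every member overlapped between the groups, where 5.87% of all genes did not overlap with TAA+celecoxib higher and 5.03% with it lower.

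**Figure D5:**
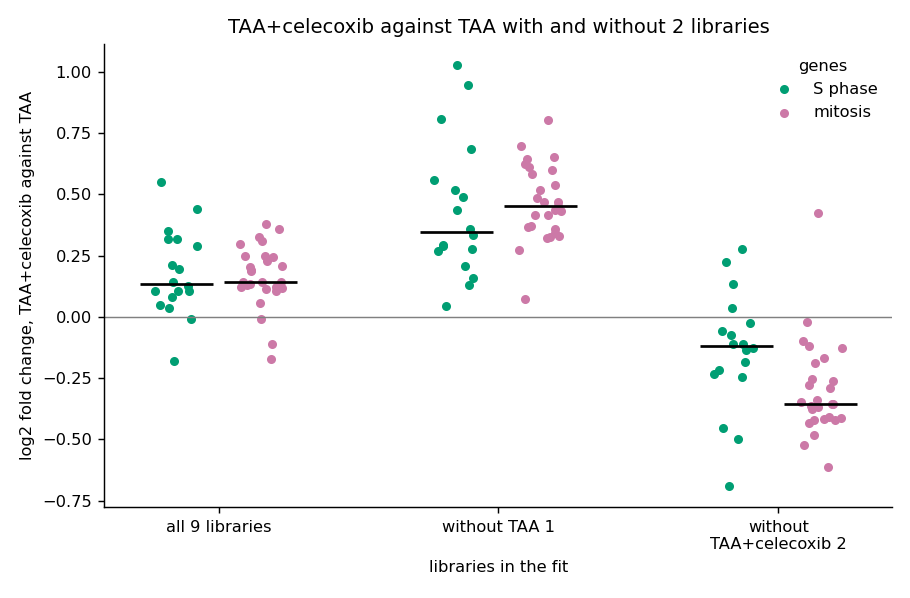
Fitted log2 fold change of TAA+celecoxib against TAA (vertical axis) for each S phase and mitosis member (points), with all 9 libraries, without TAA 1 and without TAA+celecoxib 2; black lines are medians and points are spread sideways for visibility only. The S phase and mitosis medians are 0.13 and 0.14 with all libraries, and -0.12 and -0.35 without TAA+celecoxib 2.

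Against control, TAA+celecoxib had all 45 members higher in the fit, against 50.2% of all genes higher and 49.8% lower. The median log2 fold change was 0.84 (0.54 in S phase and 0.90 in mitosis). The test called 0 members and 0% of all genes, and DESeq2 called 26 genes, or 0.163%, and 0 members. This comparison shares its control libraries with TAA against control, so the 2 sets of values are not independent. Mki67 had the largest fitted difference, 1.60 ± 0.60 (SE), 134 ± 66 CPM (SD, n = 3) against 406 ± 317 CPM (SD, n = 3), with an adjusted p of 0.911. Cenpf was at 1.56 ± 0.53, Prc1 at 1.20 ± 0.49, Tpx2 at 1.16 ± 0.51 and Cenpe at 1.11 ± 0.37. Unadjusted p was under 0.05 for 7 members, each a mitosis gene with all 9 libraries in the fit: Bub1b, Cenpe, Cenpf, Tpx2, Nusap1, Prc1 and Mki67. That is 15.6% of members, against 2.96% of all genes in that direction and 5.03%, or 803 genes, in either. That count, too, moved with single libraries: it was 0 without control 2 or TAA+celecoxib 2, 1 without control 3, 30 without control 1 and 37 without TAA+celecoxib 3. Of all genes, in either direction, 363 of 16296 were under 0.05 without control 2 and 350 of 16301 without TAA+celecoxib 2. They were 564 of 16316 without control 3, 1084 of 16237 without control 1 and 1182 of 16330 without TAA+celecoxib 3. With the replicate number as a block 21 members were under 0.05, against 1065 of 15954 genes, with 0 members called. Tyms and Cenpe alone did not overlap between groups, 4.44% against 5.27% of all genes, and 0 members were lower without overlap, against 4.42%. The median was 0.33 without TAA+celecoxib 2. TAA+celecoxib 3 lay above control 1 in 2 of 45 members and above TAA 3 in 10.

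The mitosis mean was set against the S phase mean in each library, on the log2 CPM scale. The difference was -0.80, -0.99 and -0.87 in control, -0.58, -0.71 and -0.67 in TAA, and -0.77, -0.51 and -0.83 in TAA+celecoxib. All 3 TAA libraries lay above all 3 controls, and TAA+celecoxib spanned both. Among all genes, 6.94% were higher in TAA than in control without overlap. The libraries highest in the members, TAA 1 and TAA+celecoxib 2, also had the highest such differences. The mitosis genes had the wider range over libraries, a median of 1.89 against 1.29, so the difference is not independent of the members' level.

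The other genes of the pathway, in lists written for this purpose with no member among them, gave 0 calls in any comparison. Of 31 tested replication genes 26 were fitted higher in TAA than in control, with a median log2 fold change of 0.21, and of 54 mitosis genes 52 were, with a median of 0.63. The medians were 0.17 and 0.18 for TAA+celecoxib against TAA and 0.41 and 0.82 against control. The single genes named here had the smallest unadjusted edgeR p of their list in a comparison. Kif18b, a mitotic motor protein, had a log2 fold change of 1.26 in TAA against control. Cdc25b, a phosphatase that activates Cdk1, had 1.31 in TAA+celecoxib against control. Wee1, which restrains Cdk1, had 0.32 in TAA and 0.37 in TAA+celecoxib against control. Dbf4, which activates the kinase that fires origins, had 1.07 ± 0.52 (SE) in TAA+celecoxib against TAA. Its levels were 3.06, 1.23 and 2.09 CPM in TAA and 2.72, 8.14 and 2.59 in TAA+celecoxib. Only TAA+celecoxib 2 lay above every TAA library. Smc4, a condensin subunit, had 0.22 in TAA+celecoxib against TAA. Among 16 transcription factors and G1 cyclins, medians were 0.15, 0.13 and 0.24 in the 3 comparisons, with E2f8 at 1.10 in TAA and 1.47 in TAA+celecoxib against control, and Cdk6 at -0.40 against TAA. The 15 inhibitors and quiescence genes had 7, 11 and 8 fitted higher, with medians of -0.01, 0.11 and 0.02. Cdkn2b, an inhibitor of Cdk4 and Cdk6, was at -1.09 in TAA, Ccng2 at 0.23 against TAA and Cdkn1a, encoding p21, at -0.61 in TAA+celecoxib against control. None of these passed the test.

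Markers of erythroid and granulocyte precursors were read in the same libraries. Of 18 erythroid genes listed, 17 had a row, and their summed level was 1037, 532 and 250.1 CPM in control, 5046, 686 and 2295 in TAA and 1942, 6108 and 809 in TAA+celecoxib. The 2 libraries highest in the members, TAA+celecoxib 2 and TAA 1, were also the highest in this sum, and within the controls control 1 was highest in both. TAA 3 stood above TAA 2 in this sum, against the order of most members. Of 3 markers chosen after their values were seen, Klf1, a transcription factor of red cell precursors, was at 29, 17.4 and 5.06 CPM in control, 131, 21.3 and 40.4 in TAA and 64.3, 149 and 18.5 in TAA+celecoxib, and the transferrin receptor gene Tfrc, which iron uptake in these cells uses, was at 155, 106 and 61.2 CPM in control, 537, 111 and 278 in TAA and 281, 681 and 97.9 in TAA+celecoxib. Gata1, a defining erythroid factor, was listed at 0 in control 2, control 3 and TAA 2 and was at most 1.23 CPM elsewhere. Fitted values were higher in TAA than in control for 16 of 17, with a median log2 fold change of 2.23. In TAA+celecoxib they were higher for 16 against control and for 15 against TAA, with medians of 2.38 and 0.16. Granulocyte precursor markers summed to 26.8, 98.7 and 89.9 CPM in control, 190.3, 211 and 628 in TAA and 142, 396 and 121 in TAA+celecoxib, highest in TAA 3, a library low in the members. The germinal centre B cell markers Bcl6, S1pr2, Gcsam, Mybl1 and Rgs13 summed to 143, 131 and 138 CPM in control, 154, 187 and 116 in TAA and 111, 132 and 127 in TAA+celecoxib, an order of libraries unlike that of the members, with TAA 2 highest. Fitted values of these 5 genes were higher for 4 in TAA against control and for 0 in TAA+celecoxib against either TAA or control. Plasma cell markers, 8 genes, summed to 3965, 2559 and 2294 CPM in control, 3377, 3381 and 3409 in TAA and 3356, 4091 and 2582 in TAA+celecoxib. The part of these cells in the members' values was not tested. Elane, Prtn3, Ctsg, Ms4a3, Camp and Ngp, all granulocyte precursor genes, were called by DESeq2 in TAA against control, and Ms4a3, Camp and Ngp in TAA+celecoxib against control, while edgeR called 0 of them. In each list below, the markers with the smallest edgeR p in any of the 3 comparisons are named by rule, and edgeR called 0 of them. They were Sptb and Tal1 (erythroid), Itga2b, Pf4 and Ppbp (megakaryocyte), Sdc1 and Mzb1 (plasma cell), Cd3e and Cd5 (T cell) and Cr2 and Fcrla (B cell). The rest were Siglec1 and C1qa (macrophage), Emcn and Esam (endothelium), Apoa1, Hpx and Alb (hepatocyte) and Cpa1 (acinar).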

How the data were processed

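RNA was isolated with TRIzol from rat spleen, in 3 libraries for each of 3 groups. The authors deposited raw counts per gene, which are whole numbers with totals that differ between libraries, and FPKM values, counts scaled to gene length and library. The submitters' processing notes name the aligner HISAT2 2.0.5 and the genome build mRatBN7.2. For the counting tool, the annotation release and the strand, the setting is not given in the sources used here. Of the coordinates in the files the build was not resolved, so none of them is printed, and promoter coordinates come from RefSeq on GRCr8.

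Counts were tested with edgeR 4.0.16 in R 4.3.3: 1 quasi-likelihood model over the 3 groups and 9 libraries, with TMM normalization and the filter filterByExpr (minimum count 10, total 15), and p-values adjusted by the Benjamini-Hochberg method over all 15954 genes. Tests were 2-sided, with a threshold of 0.05. Levels are CPM with TMM library sizes, and log2 CPM used a prior count of 2. Genes were compared with each other only by the deposited FPKM. An exact permutation test of 3 against 3 libraries cannot go below p = 0.1. The procedure was tested on simulated data. Values in every library are given for the member of each role with the highest mean FPKM and with the smallest p in each comparison, and for Mki67; Gins2 and Top2a were added after their values were seen. A further marker is not reported here. The members and lists were chosen with earlier results of these data known. Same-numbered libraries of control and TAA+celecoxib deviated together (correlations of 0.47, 0.18 and 0.34). The differently numbered TAA 3 and TAA+celecoxib 2 had 0.22. The labels do not say that a number marks a shared animal or day. If it does, the main test ignored a pairing, and the fit with the replicate number as a block is the one that uses it. DESeq2 1.42 and limma 3.58.1, other filters and normalizations, a replicate block and leaving out libraries were tried.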

Additional observations from a re-analysis of the deposited data

How the results depend on the processing

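edgeR called 0 of the 45 members in every setting run. In limma and DESeq2, run only on all 9 libraries with the main filter, 0 members were called too. Over all genes, DESeq2 called 55, 25 and 26 in TAA against control, TAA+celecoxib against TAA and TAA+celecoxib against control, where edgeR called 0. Leaving out single libraries gave 0 to 1, 0 to 3 and 0 to 2 genes called, the most without TAA+celecoxib 2 in the first comparison and without TAA 1 in the others. Without control 1 and TAA 1 together, edgeR called 1 gene in TAA against control and 2 in TAA+celecoxib against TAA, and with only the libraries compared it called 1 in TAA+celecoxib against control. The cause was not tested. The members' median ran from 0.31 to 0.98, from -0.25 to 0.45 and from 0.33 to 1.16 with 1 library left out, and from 0.63 to 0.68, from 0.08 to 0.15 and from 0.73 to 0.84 in the settings that kept every library of the groups compared. Without control 1 and TAA+celecoxib 1 together it was 0.97, 0.21 and 1.22, and without control 1 and TAA 1 together 0.67, 0.44 and 1.14. Members with an unadjusted p under 0.05, 3, 0 and 7 in edgeR, were 7, 0 and 18 in DESeq2, 14, 0 and 6 with only the libraries compared, 5, 0 and 14 with no filter, 2, 0 and 3 in limma, and 10, 0 and 21 with the replicate block. Of all genes, in either direction, 1184, 951 and 1040 of 15954 were under 0.05 in DESeq2 and 861, 741 and 631 in limma. With no filter they were 1197, 1053 and 983 of 22879. With only the libraries compared they were 1236 of 15552, 693 of 15386 and 626 of 15523. Of 26 named members under the settings tried, fitted values without a call changed sign in 5, 49 and 7 gene and setting pairs of 520 for each comparison. With the replicate number as a block the medians were 0.65, 0.13 and 0.79, 0 genes were called, and 1475, 1287 and 1065 genes had an unadjusted p under 0.05, against 957, 812 and 803. Correlations of same-numbered libraries were 0.24, -0.021 and 0.19 for control with TAA. They were 0.12, -0.21 and 0.03 for TAA with TAA+celecoxib, and the main test paired no libraries in any comparison. Depth left every member with at least 78 counts in each library.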
